A study of Mus musculus with 2 samples.

Results

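The miR-1, miR-133 and miR-206 genes of the mouse form 3 loci, and each locus pairs a gene of the miR-1 type with a gene of the miR-133 type. The 6 genes were taken by their names in GENCODE mouse release M21, and they are 6 of the 2202 microRNA genes in the deposited counts. All 6 passed the minimum of 10 counts in each library, as did 278 genes in all. Small RNA was sequenced from the gastrocnemius, the large calf muscle, of female B6CASTF1/J mice aged 2 months. This strain is the first-generation cross of C57BL/6J with CAST/EiJ. There is 1 group of 2 libraries, labelled biological replicates 1 and 2, with no treatment and no second genotype. The labels number the 2 females separately but give them 1 donor code, so the spread between the libraries may be that between animals or partly technical. In whole tissue, fewer cells of a type and less RNA per cell cannot be told apart.

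These microRNAs are the classic muscle microRNAs. The genes of a locus are described as made from a shared primary transcript, which myogenic factors such as MyoD and MEF2 switch on, and each product silences messenger RNAs that match its seed, the short stretch near its 5′ end. miR-1 and miR-206 have the same seed in their main arm and favour muscle differentiation, while the miR-133 products act on another set of targets and are known for keeping myoblasts dividing. miR-1 and miR-133a are made in heart and skeletal muscle, and miR-206 with miR-133b belongs to skeletal muscle and is known from slow fibres and regenerating or denervated muscle.

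RefSeq, on build GRCm38.p6, listed mature sequences for 3 of the 6 genes. They are shown with the seed, bases 2 to 8, in capitals, because the counts below depend on how far a read of one gene can be told from a read of another. Mir1a-2, Mir133a-1 and Mir133a-2 are named only.
miR-206-5p: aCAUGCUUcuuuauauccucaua
miR-206-3p: uGGAAUGUaaggaagugugugg
miR-133b-5p: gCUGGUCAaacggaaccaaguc
miR-133b-3p: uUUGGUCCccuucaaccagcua
miR-1a-1-5p: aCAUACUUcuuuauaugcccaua
The 5 arms carry 5 different seeds. The letters of the miR-206-3p seed also occur in the annotated hairpins of Mir1a-1 and Mir1a-2, and in 13 of all 2202 hairpins (0.590%), read on the gene's own strand. The letters of the miR-133b-3p seed occur in the hairpins of Mir133b, Mir133a-1 and Mir133a-2 and in 9 of all hairpins (0.409%). The 5′ arms of Mir206 and Mir1a-1 are both 23 nt long and identical at 20 positions. Counted from the 5′ end of miR-206-5p, they differ by G5A, C17G and U19C, and the first of these lies in the seed.

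The hairpins hold these arms apart from the rest of the precursor. They are given here with the mature arms in capitals. The size range in the labels is under 30 nt, and the counts do not give where in a hairpin a read lay. In Mir206 the arms span bases 8 to 30 and 46 to 67, and in Mir133b bases 29 to 50 and 66 to 87.
Mir206, chr1:20679010-20679082, plus strand: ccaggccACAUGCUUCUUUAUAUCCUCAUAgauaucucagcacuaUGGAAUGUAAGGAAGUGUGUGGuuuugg
Mir133b, chr1:20682769-20682887, plus strand: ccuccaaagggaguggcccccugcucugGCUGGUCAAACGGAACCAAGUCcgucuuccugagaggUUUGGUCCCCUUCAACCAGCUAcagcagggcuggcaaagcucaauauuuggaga

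In the mm10 assembly, Mir206 (ENSMUSG00000065559.1) and Mir133b (ENSMUSG00000065480.1) lie 3686 bases apart on the plus strand of chromosome 1. Both are within the long noncoding gene Gm28653, Mir133b inside an annotated exon and Mir206 across the edge of one. Mir1a-1 (ENSMUSG00000070144.1, chr2:180389048-180389124) and Mir133a-2 (ENSMUSG00000065460.1, chr2:180398379-180398482) lie 9254 bases apart on the plus strand of chromosome 2. No other annotated gene overlaps either of them. Leaving microRNA genes aside, the nearest to the locus is the long noncoding gene B230312C02Rik, 3163 bases outside it on the minus strand. Mir1a-2 (ENSMUSG00000106348.1, chr18:10785481-10785552) and Mir133a-1 (ENSMUSG00000065399.2, chr18:10782909-10782976) lie 2504 bases apart on the minus strand of chromosome 18. They are in introns of the annotated host transcript Mir133a-1hg, and on the opposite strand the region is intronic in Mib1, a ubiquitin ligase gene of the Notch pathway. Mir1a-2 is the only one of the 6 genes with a microRNA gene on the other strand, Mir1b.

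All of the genes but Mir206 share long exact stretches with another of the 6. A read aligned to several places was counted in no gene, so the shared part of a hairpin can give a gene few counts or none. Mir206 shared no stretch of 15 nt or more with a microRNA gene elsewhere, and none of its 52 windows of 22 nt occurred in a transcript of a gene elsewhere in the genome. Mir1a-1 and Mir1a-2 shared 28 nt, at bases 45 to 72 of Mir1a-1, and the 5′ arm of Mir1a-1, at bases 10 to 32, lies outside that stretch. RefSeq listed no 3′ arm for either gene, so its place relative to the stretch is not given here. Mir133a-1 and Mir133a-2 shared 31 nt and a second stretch of 24 nt. In Mir133a-1 these stretches cover bases 5 to 28 and 38 to 68 of a hairpin annotated as 68 nt. Mir133b shared 21 nt with both Mir133a copies, at bases 66 to 86, which is miR-133b-3p without its last base. None of the 98 windows of 22 nt in Mir133b occurred in a transcript of a gene elsewhere. The transcripts of GENCODE M21 were searched for exact matches on both strands, and the rest of the genome was not. Genes that overlap a hairpin, such as Gm28653, whose exons hold Mir133b and a part of Mir206, were left out of the search.

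**Figure D1:**
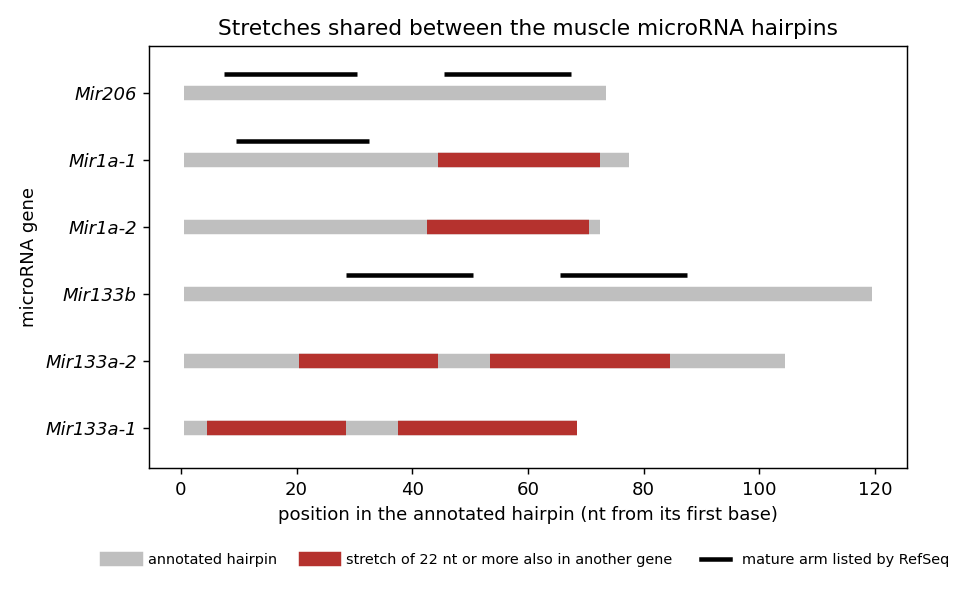
The hairpin of each gene is drawn as a bar from its first base (horizontal axis in nt, 1 row per gene), with stretches of 22 nt or more that a gene elsewhere also holds in red and the mature arms listed by RefSeq as black lines above. Mir206 and Mir133b have no red part, Mir1a-1 and Mir1a-2 have 1 stretch of 28 nt, and the Mir133a copies have stretches of 24 and 31 nt. Mir133b does share 21 nt with both Mir133a copies, just under the length drawn.

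The files list 9410562 and 14377558 reads for replicates 1 and 2, and own-strand gene counts came to 1950204 and 2291821. Levels are given as CPM, counts scaled to a library of 1000000 own-strand gene counts, so 3 counts, the most that a true 0 is taken to allow, are 1.54 and 1.31 CPM. Reads aligned to several places were 70.1% and 72.3% of all reads listed, or 3.38 and 4.54 for each read counted in a gene. How many of them came from these 6 genes is not given by the counts. Intervals on counts below are 95% intervals, Poisson for a count and Clopper-Pearson for a share, and neither covers more than counting error, because reads copied by amplification are not separate molecules.

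By reads placed in 1 gene, Mir206 was the one abundant gene of the 6, and each of the others stood at 247 CPM or less. Together the 6 genes held 2.70% of own-strand counts in replicate 1 and 4.23% in replicate 2, and the mean was 3.46% ± 1.08 (SD, n = 2). The other 5 genes without Mir206 held 0.0250% (0.0229 to 0.0273) and 0.0349% (0.0325 to 0.0374). Mir206 thus made up 99.1% of the counts of the 6 genes in replicate 1 and 99.2% in replicate 2. These shares describe only reads that were placed in 1 gene, and Mir206 is the only one of the 6 without a long shared stretch. They do not rank miR-206 against miR-1 and miR-133 as mature microRNAs.

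Mir206 had 52086 counts in replicate 1 and 96104 in replicate 2. These were 26708 CPM (26479 to 26938) and 41934 CPM (41669 to 42199), a mean of 34321 ± 10766 (SD, n = 2). The level was higher in replicate 2, and the 2 intervals did not overlap. Mir206 ranked 12th of all genes in replicate 1, 6th in replicate 2 and 10th by mean. Its neighbours in the ranking were Mirlet7i, a let-7 gene, at 34452 ± 518 CPM, and Mir30a, of the miR-30 family, at 31325 ± 5450 CPM (SD, n = 2 each). The Mir206 values spanned those of both neighbours, so its place between them is within the spread. The SD of Mir206 was 31.4% of its mean, wider than that of 73.7% of the tested genes, whose median was 16.7%.

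Mir133b, the partner of Mir206, had 36 and 54 counts. These were 18.5 CPM (12.9 to 25.6) and 23.6 CPM (17.7 to 30.7), a mean of 21.01 ± 3.61 (SD, n = 2), at rank 229 of 2202. Its neighbours in rank were Mir598 at 21.7 CPM and Mir301 at 20.7 CPM.

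The chromosome 18 locus came next. Mir1a-2 had 344 and 567 counts, or 176 CPM (158 to 196) and 247 CPM (227 to 269), a mean of 212 ± 50.2 (SD, n = 2) at rank 118. Mir133a-1 had 75 and 132 counts, or 38.5 CPM (30.2 to 48.2) and 57.6 CPM (48.2 to 68.3), a mean of 48.03 ± 13.5 (SD, n = 2) at rank 186. Both genes were higher in replicate 2. The intervals of Mir1a-2 did not overlap between the libraries, and those of Mir133a-1 met at 48.2 CPM.

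The chromosome 2 locus was the lowest. Mir1a-1 had 23 and 34 counts, or 11.8 CPM (7.48 to 17.7) and 14.8 CPM (10.3 to 20.7), a mean of 13.3 ± 2.15 (SD, n = 2) at rank 243. Mir133a-2 had 10 and 13 counts, or 5.13 CPM (2.46 to 9.43) and 5.67 CPM (3.02 to 9.70), a mean of 5.40 ± 0.385 (SD, n = 2) at rank 284. For both genes the intervals of the 2 libraries overlapped widely. Mir133a-2 was just at the minimum of 10 counts in replicate 1.

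**Figure D2:**
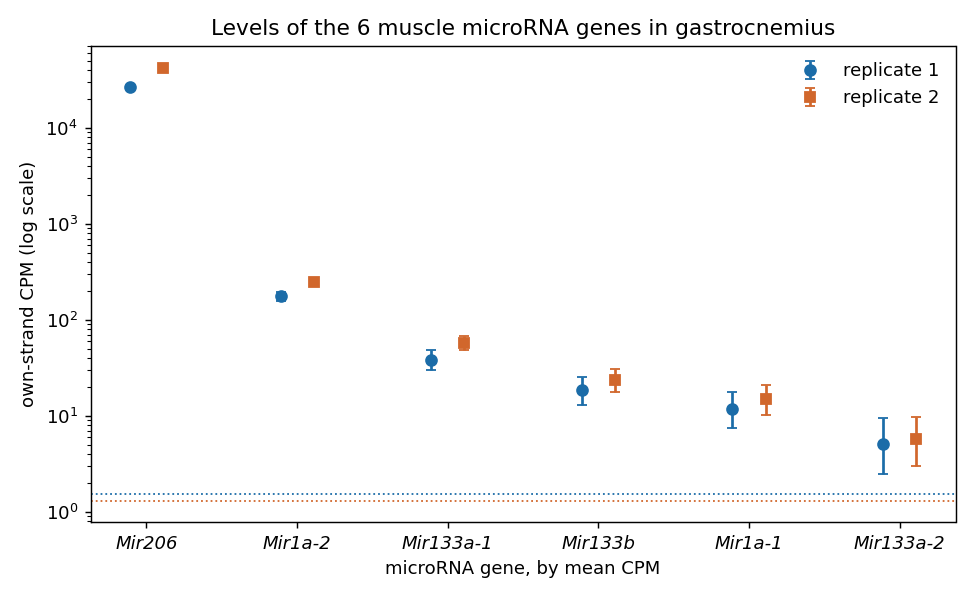
Own-strand CPM (log axis) of each gene in replicate 1 (circles) and replicate 2 (squares), with 95% Poisson intervals as bars and the CPM of 3 counts as dotted lines. Mir206 lies at 26708 and 41934 CPM, while the other genes lie between 5.13 and 247 CPM and fall in the same order in both libraries.

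In both libraries the order of the levels, in placed reads, ran from Mir206 through Mir1a-2, Mir133a-1 and Mir133b to Mir1a-1 and then Mir133a-2. Per 100 nt of annotated hairpin the order was the same, with means of 47015, 294, 70.6, 17.7, 17.3 and 5.19 CPM per 100 nt. On that scale Mir133b (15.5 and 19.8) and Mir1a-1 (15.3 and 19.3) did not differ beyond their spread. In plain CPM the values of Mir133b and Mir1a-1 did not overlap, but their counting intervals overlapped in each library. For the other neighbours in the order the values of the 2 libraries did not overlap on either scale, though the counting intervals of Mir1a-1 and Mir133a-2 overlapped in replicate 1.

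The split of counts within a locus does not depend on library size. It does depend on which reads can be placed in 1 gene. Mir133b shares 21 nt with both Mir133a copies, and Mir206 shares no stretch of 15 nt or more. Mir206 held nearly all counts of its locus in both libraries, and the other 2 loci were split more evenly. Mir206 held 99.931% (99.904 to 99.952) of the counts of its locus in replicate 1 and 99.944% (99.927 to 99.958) in replicate 2, which is 1447 and 1780 counts of Mir206 for each count of Mir133b. Mir1a-2 held 82.1% (78.1 to 85.7) and 81.1% (78.01 to 84.0) of the chromosome 18 locus, or 4.59 and 4.30 counts for each count of Mir133a-1. Mir1a-1 held 69.7% (51.3 to 84.4) and 72.3% (57.4 to 84.4) of the chromosome 2 locus, or 2.30 and 2.62 counts for each count of Mir133a-2. In all 3 loci the miR-1 type gene was the higher one, and the intervals of the 2 libraries overlapped. The intervals of the chromosome 18 and chromosome 2 loci also overlapped in each library.

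Between copies, the chromosome 18 gene held most of the counts. Mir1a-2 had 93.7% (90.7 to 96.0) of the Mir1a counts in replicate 1 and 94.3% (92.2 to 96.1) in replicate 2. Mir133a-1 had 88.2% (79.4 to 94.2) of the Mir133a counts in replicate 1 and 91.03% (85.2 to 95.1) in replicate 2. For the 2 loci as wholes, chromosome 18 held 92.7% (89.9 to 94.9) and 93.7% (91.7 to 95.3) of the counts. The intervals of Mir1a and Mir133a overlapped in both libraries. The products of the 28 nt and 31 nt shared stretches carry no mark of the copy they came from, so these splits hold for placed reads and not for the mature microRNA as a whole.

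**Figure D3:**
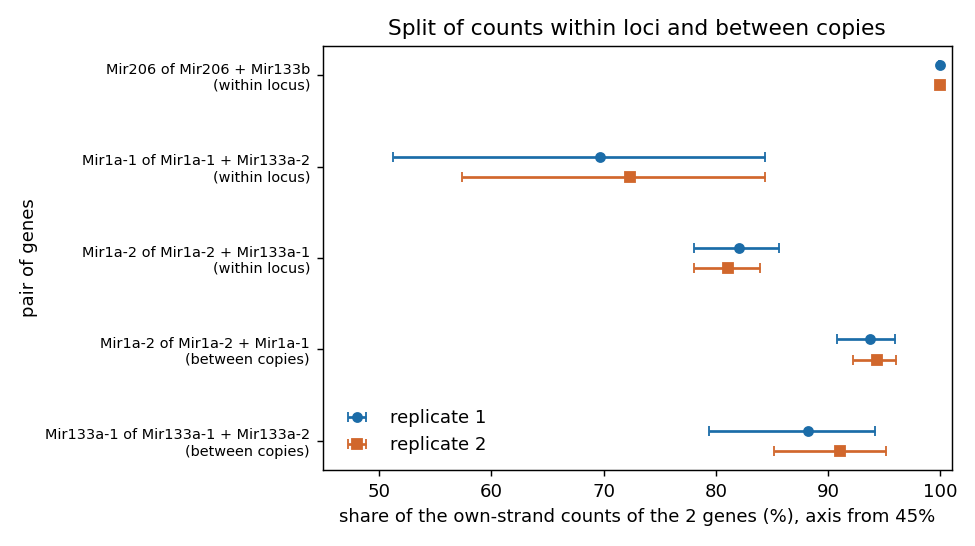
Share of the own-strand counts of 2 genes held by the first of them (horizontal axis in %, starting at 45%), for the 3 loci and the 2 pairs of copies, with 95% Clopper-Pearson intervals, replicate 1 as circles and replicate 2 as squares. The intervals of the 2 libraries overlap in each pair, and the shares run from 69.7% for Mir1a-1 in its locus to 99.944% for Mir206.

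The imbalance of placed reads between Mir206 and Mir133b was set beside that of other neighbours. Among the tested genes, 79 pairs lie next to each other on 1 strand with at most 10000 bases between them. The log2 ratio of the higher to the lower gene had a median of 2.54 over these pairs. Mir206 over Mir133b was the largest of the 79, at 10.65 (10.50 and 10.80 in the 2 libraries), ahead of Mir29a over Mir29b-1 at 8.41. Mir1a-2 over Mir133a-1 ranked 46th at 2.15, and Mir1a-1 over Mir133a-2 ranked 58th at 1.29, both below the median. The change of the ratio between the libraries was 0.30, 0.09 and 0.19 for the 3 loci on the log2 scale, against a median of 0.32 over the pairs. A pair entered only if both genes reached 10 counts in each library, so the list leaves out larger imbalances with an undetected partner. The ratios compare reads placed in 1 gene and not the mature microRNAs. Mir133b shares 21 nt with both Mir133a copies, while Mir206 shares no stretch of 15 nt or more. How far such shared stretches set the ranking of the pairs was not tested.

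**Figure D4:**
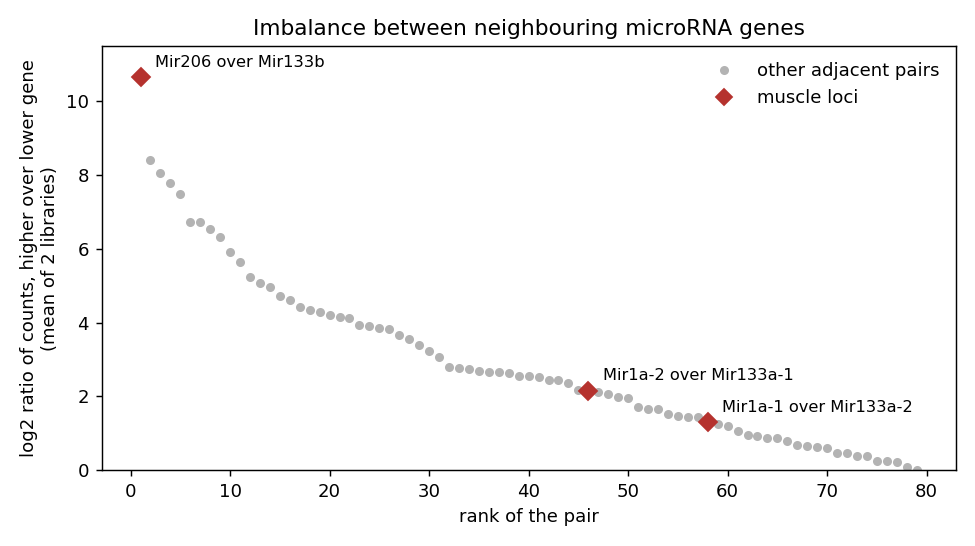
Each point is 1 of 79 pairs of neighbouring microRNA genes, placed by rank (horizontal axis) and by the log2 ratio of counts of its higher to its lower gene, as the mean of the 2 libraries (vertical axis). The 3 muscle loci are red diamonds, with Mir206 over Mir133b first at 10.65 and the other 2 loci at 2.15 and 1.29.

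Strand decided whether Mir1a-2 was seen. Mir1a-2 lies inside Mir1b on the other strand, so a read there is ambiguous when strand is ignored, and the either-strand count of Mir1a-2 was 0 in both libraries. The same 344 and 567 reads stood in the files as counts opposite to Mir1b. On its own strand Mir1b had 3 counts in replicate 1 and 1 in replicate 2, at or below the limit of 3 counts. The other 5 genes had the same count on their own strand as on either strand and 0 on the opposite strand. Mir133c, a gene elsewhere on chromosome 2 that shares the family name, had 0 counts in both libraries, with upper limits of 1.89 and 1.61 CPM.

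A test of replicate 2 against replicate 1 concerns these 2 libraries only, as no condition separates them. Each gene's 2 counts were tested with a two-sided exact binomial test, given library sizes scaled by TMM (trimmed mean of M-values) and with Benjamini-Hochberg adjustment over the 278 tested genes. A gene was called at an adjusted p under 0.05 and a difference of at least 2-fold. All 6 muscle genes were higher in replicate 2, as were 48.9% of the tested genes, and the median log2 ratio was 0.45 for the 6 and −0.03 for all tested genes. None of the 6 was called, against 11.9% of tested genes in either direction and 2.52% higher in replicate 2. Without the minimum fold, 3 of the 6 had an adjusted exact p under 0.05 and were higher in replicate 2, against 24.8% of the tested genes in that direction and 55.4% in either. The same 3 had an unadjusted exact p under 0.05, a rule for which the share of all tested genes was not counted.

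Mir206 was 1.61-fold higher in replicate 2 (1.59 to 1.63), 0.69 on the log2 scale with an SE of 0.0078 from counting error. Its adjusted p underflowed to a value too small to print. Mir1a-2 was 1.44-fold higher (1.25 to 1.65, adjusted exact p = 2.72e-07), and Mir133a-1 was 1.53-fold higher (1.15 to 2.06, adjusted exact p = 0.00676). The interval for Mir133b ran from 0.842-fold to 2.05-fold around 1.31 (adjusted exact p = 0.334). That for Mir1a-1 ran from 0.737-fold to 2.29-fold around 1.29 (adjusted exact p = 0.451). That for Mir133a-2 ran from 0.459-fold to 2.89-fold around 1.13 (adjusted exact p = 0.871). For the last 3 genes the data thus allow a difference as large as that of Mir206 and also none.

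These tests hold against counting error, not against further spread between libraries, whether between animals or technical. With the coefficient of variation estimated from the same 2 libraries, 0.352, edgeR's exact test called none of the 6 genes. The difference tested is itself part of that spread. The test thus cannot decide whether the ratios of the 6 genes exceed the usual spread between libraries. With 1 donor code for both libraries, that spread may be between animals or partly technical. The exact test of edgeR called 7 of the 278 genes (2.52%). The 3 tested genes whose log2 ratio between the libraries was nearest to that of Mir206 were Mir1955 at 0.66, Mirlet7d at 0.72 and Mir1198 at 0.72. This likeness rests on 2 libraries, and Mirlet7d, at 14933 CPM, was the only one of the 3 above 15 CPM.

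**Figure D5:**
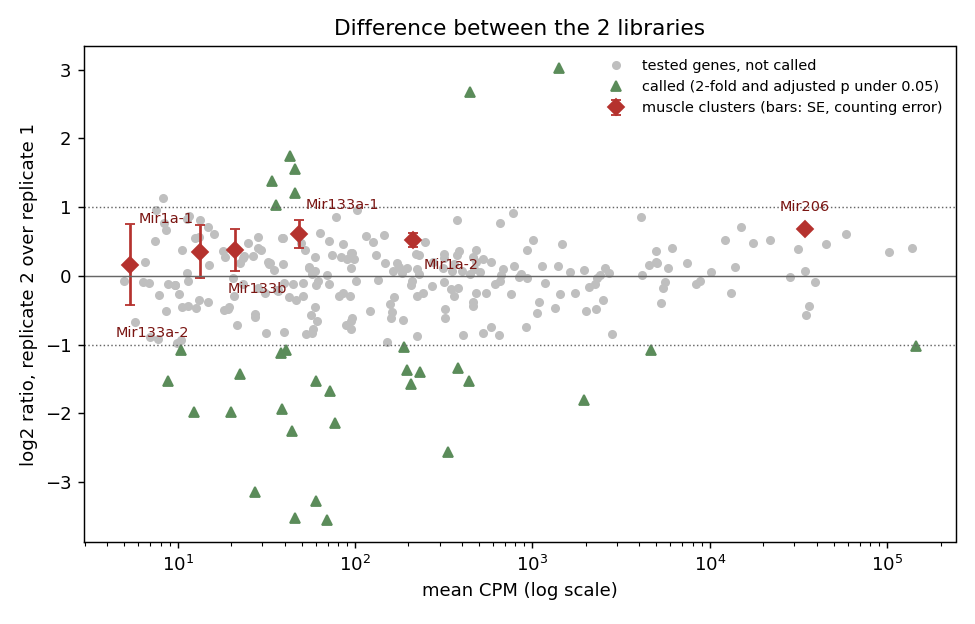
Log2 ratio of replicate 2 over replicate 1 against mean CPM (log axis) for the 278 tested genes, with called genes as triangles, the 6 muscle genes as red diamonds with the SE from counting error, and dotted lines at 2-fold. The 6 diamonds lie above 0 and below the 2-fold line, from 0.16 for Mir133a-2 to 0.69 for Mir206.

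Of the other microRNAs of striated muscle, Mir499, Mir208b and Mir208a differed far more between the libraries than the 6 genes. Mir499 and Mir208b, from introns of slow myosin genes, had 615 and 5722 counts and 238 and 1745 counts, 8.11-fold and 6.39-fold higher in replicate 2, and both were called. In edgeR's exact test, whose spread comes from the same 2 libraries, the adjusted exact p was 0.00887 for Mir499 and 0.0283 for Mir208b. Mir208a, best known from the heart, had 4 and 50 counts and was not tested. Mir486, from the Ank1 locus, was 1.88-fold higher, with 549 and 1006 CPM, and was not called. The slow and cardiac list as a whole held 0.0439% and 0.328% of counts.

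Markers of other cell types also differed between the libraries. Smooth muscle (Mir143, Mir145a) held 20.3% and 9.73% of counts in replicates 1 and 2. Both genes were tested and called lower in replicate 2 (log2 ratios of −1.02 and −1.08). The endothelial Mir126a held 12.1% and 15.7% and was not called (0.41). Leukocytes (4 of 4 genes tested) held 0.315% and 0.246%, with Mir223 and Mir142 called lower in replicate 2 (log2 ratios of −1.53 and −1.33) and Mir155 and Mir150 not called (0.14 and 0.03). Red cells (2 of 2) held 0.0787% and 0.0460%, with Mir451a and Mir144 not called (−0.82 and −0.29). Of 8 genes listed for glia and nerve, 7 were matched in the files. Mir338, called lower in replicate 2 (−1.81), held all of this list's 0.307% and 0.0855%. The 6 other matched genes, those of Mir9 and Mir124a, had 0 counts. Fibroblasts (3 of 4 tested) held 0.149% and 0.151%, a sum made up mostly of Mir214 (log2 ratio 0.14, not called), while Mir199b was called lower in replicate 2 (−1.67). Satellite cells (3 of 4 tested) held 0.538% and 0.537%, mostly Mir195a (0.18, not called), while Mir708 and Mir31 were called lower in replicate 2 (−2.57 and −3.15). The part of these differences in the ratios of the 6 muscle genes was not tested.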

How the data were processed

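The authors deposited, for each library, raw counts of reads per microRNA gene on either strand, on the own strand and on the opposite strand. Per the notes deposited with the libraries, reads were assigned to GENCODE mouse M21 on mm10. Which aligner and counter were used was not given in the sources used here. Rows that name no gene (unmapped, multiply aligned, outside genes, ambiguous; 79.3% and 84.1% of reads listed) stayed out of library sizes and tests. All 2202 gene identifiers matched the annotation.

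CPM were computed from own-strand counts. The edgeR quasi-likelihood test could not be fitted with 1 group, so a conditional exact binomial test on TMM-scaled sizes was used (prior of 0.5 counts for log2 ratios). The binomial test was tried on simulated counts that held counting error alone, with library totals in place of TMM-scaled sizes. That trial does not cover spread between libraries. Mature and hairpin sequences are from RefSeq, and shared stretches were searched in the GENCODE transcripts. R 4.3.3, edgeR 4.0.16, DESeq2 1.42.0, Python 3.11.15, scipy 1.17.1 and pandas 2.3.3 were used. Alternatives changed the scaling, strand, denominator, count minimum, minimum fold, dispersion and libraries.

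The members and lists were chosen with earlier results of these data known. The text names all 6 members, microRNA genes opposite to them, the other striated muscle genes (Mir208a, Mir208b, Mir499, Mir486), neighbours in rank, host genes and the 3 genes nearest to Mir206 in ratio. Mir29a with Mir29b-1, Mir133c, single genes of the marker lists and the comparison of adjacent pairs were added after their values were seen.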

Additional observations from a re-analysis of the deposited data

Results flagged for a closer look

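Reads aligned to several places numbered 6593896 in replicate 1 and 10399139 in replicate 2. Reads that were ambiguous when strand was ignored numbered 464605 and 684345, and they include the 344 and 567 own-strand reads of Mir1a-2. Multiply aligned reads enter no level in the report, ambiguous ones enter no either-strand count, and both exceed the 3 counts that a true 0 allows.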

How the results depend on the processing

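The 2 libraries alone gave shares of 2.70% and 4.23% for the 6 genes, and 26708 and 41934 CPM for Mir206. The share of Mir206 in its locus ran from 99.931% to 99.944% when 1 library was left out, that of Mir1a-1 from 69.7% to 72.3%, and that of Mir1a-2 from 81.1% to 82.1%. Among the copies, Mir1a-2 ran from 93.7% to 94.3% and Mir133a-1 from 88.2% to 91.03%. With either-strand counts, the 6 genes held 4.75% of a smaller total, Mir206 stood at 47422 CPM, and the shares of Mir1a-2 in its locus and among the Mir1a copies fell to 0%, since its reads are ambiguous without strand. Over all reads listed, the 6 genes held 0.616% and Mir206 stood at 6110 on the CPM scale. With Mir143 left out of the denominator, the mean of Mir206 was 39765 CPM, within its SD of the main value of 34321 CPM. The genes called between the libraries numbered 33, and became 18 with at least 50 counts in each library, where fewer genes are tested, 7 with the estimated dispersion and 154 with no minimum fold. The log2 ratios of the 6 genes were above 0, from 0.13 to 0.71, in the 32 alternatives of scaling, strand, count minimum and dispersion that gave a value, and uncalled there. These alternatives are not separate checks of direction. The estimated dispersion leaves the ratios unchanged, and the others reuse the same counts. Library totals alone shifted the log2 ratios by a median of −0.03, and DESeq2 size factors by 0.03. Without the minimum fold, 3 of the 6 were called, against 55.4% of the tested genes in either direction. Mir1a-2 could not be tested on either-strand counts, nor Mir133b, Mir1a-1 and Mir133a-2 at 50 counts. Leaving out a library leaves no comparison of the libraries. No paired analysis was possible because the series has 1 group. With 10 to 54 counts, Mir133a-2, Mir1a-1 and Mir133b are limited by depth.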
